A study of Homo sapiens with 12 samples.

Results

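The transcripts of 9 enzymes grouped under deoxynucleotide synthesis were followed in HCT116 cells depleted of SDS22. They are RRM1, RRM2, TYMS, DTYMK, DUT, DCTPP1, TK1, DCK and CTPS1, chosen by name from the 58233 genes of the count table. HCT116 is a human colorectal carcinoma line, and SDS22, the product of PPP1R7, is a partner of protein phosphatase-1. All cells carried the OsTIR1 ubiquitin ligase adapter in both AAVS1 alleles under a tetracycline-inducible promoter. The parental line (HCT116 Tet-OsTIR1) had no degron tag, while the SDS22-degron line, which was grown from individual colonies, also had both PPP1R7 alleles fused to an mAID-mClover tag. Cells were untreated or received, over 48 h, doxycycline (Dox) at 2 µg/ml to induce OsTIR1 and the auxin IAA at 500 µM, which then brings the tagged protein to degradation. Parental cells with Dox/IAA thus received both agents without a tagged target. There were 3 libraries per group and 12 in all, from poly-A selected RNA and described by the submitters as 3 independent experiments.

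Deoxynucleotides are the building blocks of DNA, and most of them are made from ribonucleotides by ribonucleotide reductase. This enzyme joins the large subunit RRM1 to a small subunit, which is RRM2 in dividing cells or RRM2B, a p53 target, in other settings. Thymidylate needs further steps, as TYMS methylates dUMP with a folate cofactor and DTYMK phosphorylates the product, while salvage kinases recover deoxynucleosides from outside the pathway. Several of these genes are known as targets of E2F factors and are transcribed at their highest level around S phase. In bulk RNA, fewer cells in such a phase and less RNA per cell cannot be told apart.

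Library totals over all genes ran from 12133915 to 14657508 reads. All 9 enzyme genes were among the 16657 genes with enough counts for testing, at 235 to 6453 counts per library. Levels are given as CPM (each count scaled to the TMM-normalized library total), and tests are edgeR's quasi-likelihood F test with Benjamini-Hochberg adjustment over all tested genes. A gene was called where the adjusted p was below 0.05. The epithelial markers EPCAM (263 to 306 CPM) and KRT8 (1065 to 1841 CPM) were expressed in every library, while VIL1 and LGALS4, of differentiated enterocytes, had at most 2 counts. Of 9 markers of blood, endothelial and fibroblast cells, CD3E was at 0 throughout, and only COL1A1 (9.88 to 31.7 CPM) and VWF (0.237 to 1.65 CPM) had enough counts for testing. PTPRC, CD68 and PECAM1 had at most 1 count in any library. The summed level of the 9 markers was 14.6 to 16.2 CPM in untreated and 22.4 to 33.0 CPM in treated SDS22-degron cells, and 10.7 to 14.3 CPM and 17.8 to 23.3 CPM in parental cells, and the part of this in the enzyme values was not tested. The PPP1R7 transcript cannot show the depletion, since the tag acts on the protein.

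All 9 enzymes fell in SDS22-degron cells with Dox/IAA, by a median of 1.05 on the log2 scale, beside 25.5% of tested genes called lower. In parental cells given the same agents, 5 of the 9 fell (6 with the replicate number as a block), by less, beside 15.7% of tested genes. The decline was larger in the SDS22-degron line for all 9, and 8.35% of tested genes were called lower in that comparison. RRM2 and TK1 showed the largest difference between the lines, and DCK and DCTPP1 the least certain one. Before treatment, RRM1 and DCTPP1 were lower in the SDS22-degron line, beside 15% of tested genes. With the block DCK was as well, though not all same-number pairs of the untreated lines correlated above 0.1, the cut used for pairing.

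**Figure D1:**
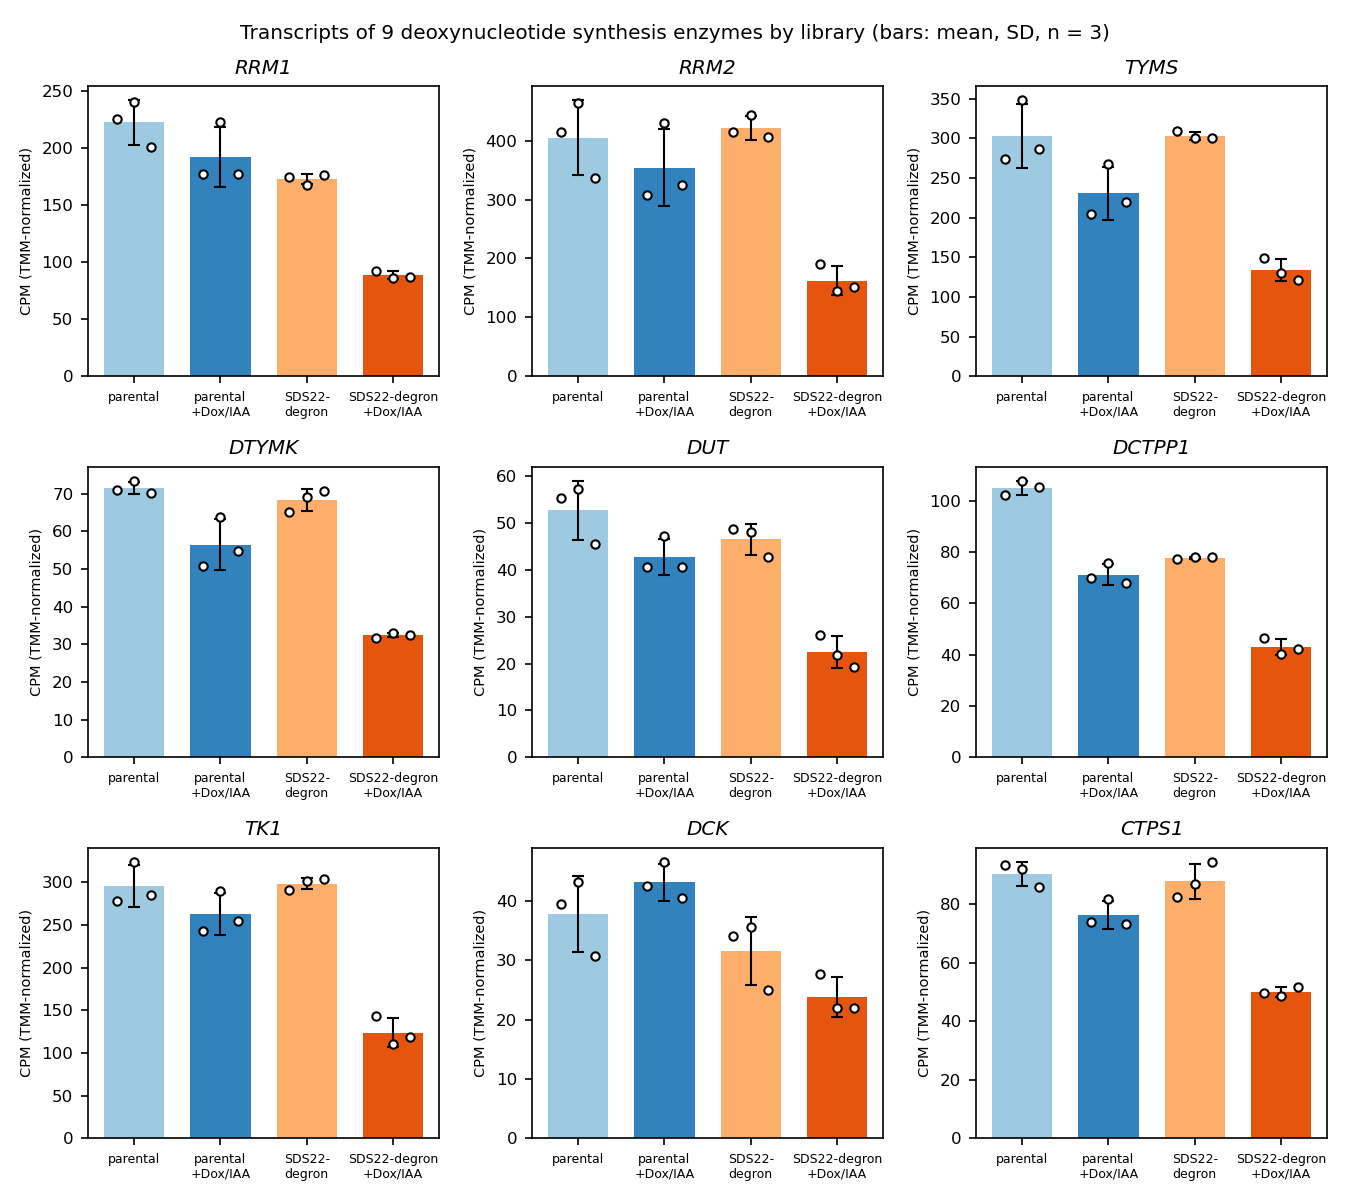
Level of each of the 9 enzymes in CPM (vertical axes, from 0) in the 4 groups; points are libraries, bars the mean and error bars the SD of 3 libraries. The 3 Dox/IAA-treated SDS22-degron libraries lie below all other libraries for every enzyme except DCK, where 1 untreated SDS22-degron library, at 25.0 CPM, reaches into their range.

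The reductase came first in the order of the pathway. RRM2 (ENSG00000171848, chromosome 2, 10122328 to 10131419 on GRCh38) encodes the small subunit, whose amount varies over the cell cycle. It was at 415, 444 and 406 CPM in the 3 untreated SDS22-degron libraries and at 190.4, 146 and 151 CPM after Dox/IAA. The treated libraries lay far below the untreated ones, at 38.5% of their level by the fit (log2 fold change -1.38, standard error 0.127, adjusted p = 7.60e-08). In parental cells, RRM2 was at 414, 464 and 337 CPM without treatment and at 309, 429 and 325 CPM with it. These ranges overlapped, and the log2 fold change of -0.19 was not called (95% confidence interval -0.45 to 0.06, adjusted p = 0.248). Between the untreated lines RRM2 was not called, at an estimated difference of 0.06 on the log2 scale (95% confidence interval -0.20 to 0.31).

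RRM1 (ENSG00000167325, chromosome 11, 4094707 to 4138876) encodes the large, catalytic subunit. It was at 174, 168 and 177 CPM in untreated SDS22-degron cells and at 92.4, 86.5 and 86.7 CPM after Dox/IAA. This was 51.2% of the untreated level (log2 fold change -0.97, standard error 0.0866, adjusted p = 5.79e-08), with no overlap. Parental libraries were at 226, 240.3 and 201 CPM untreated and at 177, 223 and 177 CPM treated, where replicate 2 of the treated cells reached the range of the untreated ones. That change of -0.21 was not called (adjusted p = 0.0641), but with the replicate number as a block it was (-0.21, adjusted p = 0.0337). RRM1 differed from RRM2 in being lower in the SDS22-degron line before any treatment, at 77.8% of the parental level (log2 fold change -0.36, adjusted p = 0.00327).

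Thymidylate is made by TYMS and passed on by DTYMK. TYMS (ENSG00000176890, chromosome 18, 657604 to 673578) was at 309, 300.4 and 301 CPM in untreated SDS22-degron cells and at 149, 129.9 and 122 CPM after Dox/IAA. The treated level was 44.0% of the untreated one (log2 fold change -1.19, standard error 0.102, adjusted p = 3.59e-08), and the groups were far apart. In parental cells it was at 274, 349 and 286 CPM without and at 205, 268 and 219.7 CPM with the agents. Here too the groups did not overlap, but the step was smaller (log2 fold change -0.39, adjusted p = 0.00605). ENOSF1 runs against TYMS on the opposite strand and shares 3255 bases with it.

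DTYMK (ENSG00000168393, chromosome 2, 241675742 to 241686991) lies 492090 bases from PPP1R7, the tagged gene. Its 3 untreated SDS22-degron libraries were at 65.1, 69.2 and 70.8 CPM, and the treated ones at 31.8, 33.0 and 32.5 CPM. Both groups had little spread, and the treated one was at 47.5% of the other (log2 fold change -1.07, standard error 0.0807, adjusted p = 8.10e-09). In parental cells DTYMK was at 70.9, 73.4 and 70.2 CPM and fell to 50.8, 63.9 and 54.8 CPM (log2 fold change -0.34, adjusted p = 0.00267). Between the untreated lines it did not differ beyond the test (log2 fold change -0.07, adjusted p = 0.568).

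DUT and DCTPP1 hydrolyse deoxynucleotides. DUT (ENSG00000128951, chromosome 15, 48331011 to 48343373) hydrolyses dUTP to dUMP, the substrate of TYMS. It was at 48.6, 48.1 and 42.7 CPM in untreated SDS22-degron cells and at 26.1, 21.8 and 19.4 CPM after Dox/IAA (log2 fold change -1.05, standard error 0.111, adjusted p = 4.03e-07). The 2 groups were well apart. Parental libraries were at 55.4, 57.1 and 45.5 CPM untreated and at 40.5, 47.2 and 40.5 CPM treated. These overlapped, and the log2 fold change of -0.30 was close to the threshold (adjusted p = 0.0359).

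DCTPP1 (ENSG00000179958, chromosome 16, 30423619 to 30430075) hydrolyses dCTP and its modified forms. It was at 77.4, 78.1 and 78.0 CPM in untreated SDS22-degron cells and at 46.4, 40.3 and 42.3 CPM after Dox/IAA (log2 fold change -0.85, standard error 0.0693, adjusted p = 1.86e-08). In parental cells it was at 102, 108 and 105 CPM and at 69.9, 75.7 and 68.0 CPM with the agents. This was the largest change among the 9 enzymes in parental cells (log2 fold change -0.56, adjusted p = 9.49e-06). It was also lower in untreated SDS22-degron than in untreated parental cells (log2 fold change -0.43, standard error 0.0663, adjusted p = 8.62e-05). The neighbourhood moved with it in that comparison, as the 725 tested genes of chromosome 16 had a median log2 fold change of -0.30, and 100 tested genes within 2 Mb had one of -0.39, with 50 called lower and 1 higher. With Dox/IAA inside the SDS22-degron line the same 100 genes had a median of -0.06. The part of this in the DCTPP1 value was not tested. ZNF771 overlaps DCTPP1 on the opposite strand, with 124 to 178 counts per library.

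TK1 and DCK are the cytosolic salvage kinases, TK1 for thymidine and DCK mainly for deoxycytidine. TK1 (ENSG00000167900, chromosome 17, 78174075 to 78187233) was at 291, 301 and 304 CPM in untreated SDS22-degron cells and at 143, 111 and 118 CPM after Dox/IAA. The groups were far apart, and the fitted level was 41.5% of the untreated one (log2 fold change -1.27, standard error 0.0903, adjusted p = 4.76e-09). In parental cells it was at 278, 324 and 285 CPM without treatment and at 243, 290.0 and 255 CPM with it, and the change of -0.17 was not called (95% confidence interval -0.36 to 0.01, adjusted p = 0.151).

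DCK (ENSG00000156136, chromosome 4, 70992538 to 71030914) was the enzyme that stood apart from the others. It was at 34.1, 35.6 and 25.0 CPM in untreated SDS22-degron cells and at 27.8, 21.9 and 21.9 CPM after Dox/IAA. The groups overlapped, and the fitted decline was the smallest of the 9 (log2 fold change -0.40, standard error 0.139, adjusted p = 0.0209). Parental cells had 39.5, 43.2 and 30.7 CPM without and 42.5, 46.6 and 40.4 CPM with the agents, so that DCK was the only enzyme with a positive estimate there (log2 fold change 0.19, adjusted p = 0.292, not called). Replicate 3 was the lowest of its group in all 4 groups, by a small margin in treated SDS22-degron cells. MOB1B overlaps 29912 bases of DCK on the same strand and was counted with 574 to 1064 reads per library.

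CTPS1 makes CTP, the ribonucleotide from which the cytidine deoxynucleotides derive. CTPS1 (ENSG00000171793, chromosome 1, 40979335 to 41012565) was at 82.6, 86.9 and 94.4 CPM in untreated SDS22-degron cells and at 49.7, 48.7 and 51.9 CPM after Dox/IAA (log2 fold change -0.81, standard error 0.0721, adjusted p = 5.12e-08). The 3 treated libraries were close to each other and below all others. In parental cells it fell from 93.4, 92.2 and 85.9 CPM to 74.0, 82.0 and 73.4 CPM (log2 fold change -0.24, adjusted p = 0.0134).

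Counted together, 9 of 9 enzymes were called lower and 0 higher with Dox/IAA in SDS22-degron cells, beside 25.5% and 26% of all tested genes. Their median log2 fold change was -1.05, against 0.00455 over all tested genes. At the cut-off of the study (p under 0.05 and a log2 fold change beyond 1), 5 of the 9 were lower, which applied to 4.02% of tested genes. The libraries of 8 enzymes did not overlap, as was the case for 59.9% of tested genes in either direction. In parental cells, 5 of 9 were called lower and 0 higher, beside 15.7% and 15.9% of tested genes, and none of the 9 was past the cut-off, beside 0.792% of tested genes. Their libraries did not overlap for 4 enzymes (TYMS, DCTPP1, CTPS1 and DTYMK) beside 41.3% of tested genes, and the median of the 9 was -0.24. With the replicate block, which takes in the pairing by number in this comparison, 6 of 9 were called lower in parental cells, RRM1 being the additional one. Of 16657 tested genes, 2986 were called lower there with the block. In none of the 5 comparisons was an enzyme higher even at an unadjusted p under 0.05, by edgeR (0 of 9) or by DESeq2 (0 of 9), and DESeq2 called 0 higher as well.

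**Figure D2:**
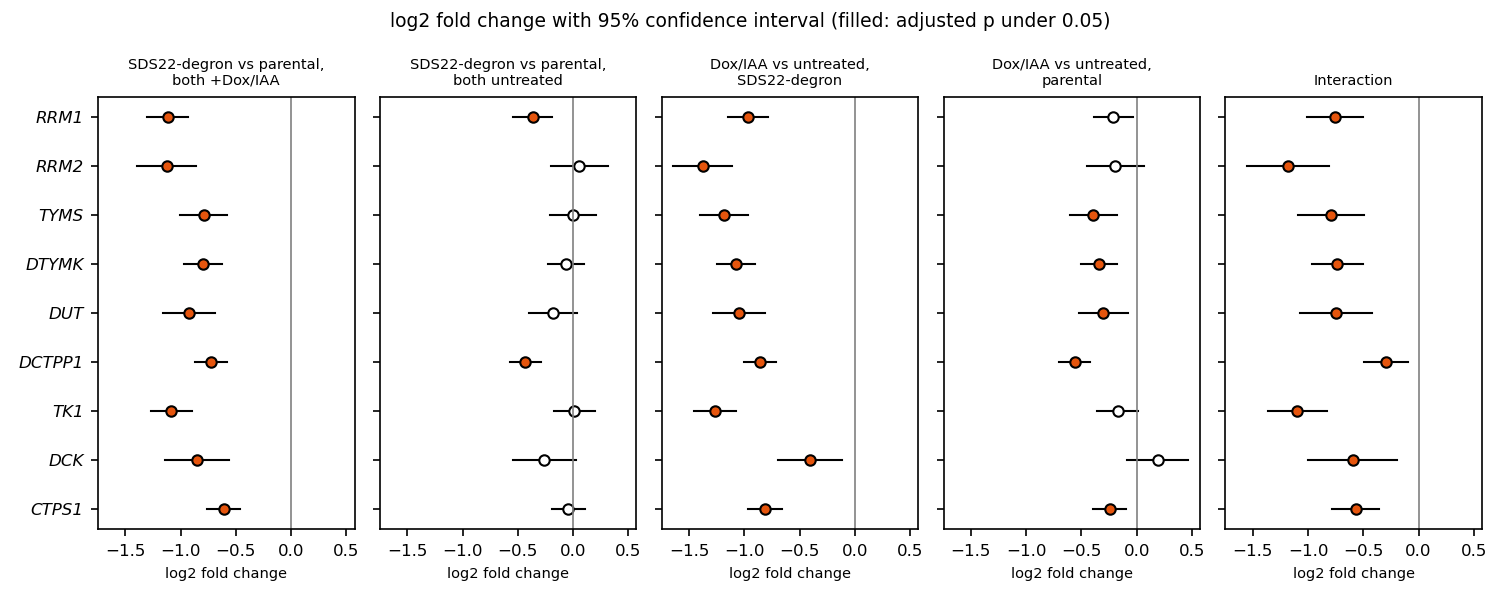
The log2 fold change (horizontal axes) of the 9 enzymes in the 5 comparisons, with 95% confidence intervals; filled points have an adjusted p below 0.05. All 9 points lie left of 0 for the treated lines, for Dox/IAA in SDS22-degron cells and for the interaction, and those of the untreated lines lie around 0 except for RRM1 and DCTPP1.

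Treated SDS22-degron cells were compared with treated parental cells, so that both sides had received the agents. All 9 enzymes were called lower in this comparison and 0 higher, beside 23.1% and 21.8% of tested genes, and all 9 without overlap between the libraries, beside 52.9% of tested genes. The levels ranged from 45.8% of the parental level for RRM2 to 65.5% for CTPS1. RRM2 (log2 fold change -1.13), RRM1 (-1.12) and TK1 (-1.08) were past the cut-off, as were 3.38% of tested genes in this direction. RRM1 was already lower between the untreated lines (-0.36). Its change within the SDS22-degron line (-0.97) and its interaction (-0.76) were not past the cut-off. DUT (-0.93), DCK (-0.85), DTYMK (-0.80), TYMS (-0.79), DCTPP1 (-0.73) and CTPS1 (-0.61) followed. DCTPP1 was already lower between the untreated lines too (-0.43). Between the treated lines, the 100 tested genes within 2 Mb of DCTPP1 had a median of -0.36, with 54 called lower and 4 higher. The part of this in the DCTPP1 value was not tested here either. The comparison shares its libraries with those within each line and is no separate evidence.

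Between the untreated lines, 2 of 9 enzymes (RRM1 and DCTPP1) were called lower and 0 higher, beside 15% and 13.2% of tested genes. With the replicate block, DCK was called lower too (log2 fold change -0.26, adjusted p = 0.0473, against 0.167 without the block), which made 3 of 9, beside 2832 of 16657 tested genes. Same-number pairs of the untreated lines correlated at 0.0584, 0.0983 and 0.118. Not all were above 0.1, so these lines were not taken as paired by replicate number. The median log2 fold change was -0.07. The libraries of these 2 enzymes did not overlap, where 43.5% of tested genes did not. For TYMS the estimate was 0.00 (95% confidence interval -0.21 to 0.21) and for TK1 it was 0.01 (95% confidence interval -0.17 to 0.20).

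The interaction of line and treatment is the difference between the response of SDS22-degron cells and that of parental cells on the log2 scale. It was called lower for 9 of 9 enzymes and higher for 0, beside 8.35% and 6.03% of tested genes. RRM2 had the largest value (-1.18, standard error 0.176, adjusted p = 0.000237) and TK1 the next (-1.10, standard error 0.126, adjusted p = 3.20e-05), and these 2 were past the cut-off, as were 2.46% of tested genes. TYMS (-0.79), RRM1 (-0.76), DUT (-0.75), DTYMK (-0.73) and CTPS1 (-0.57) had adjusted p between 0.000272 and 0.00305. DCK (-0.60, adjusted p = 0.0443) and DCTPP1 (-0.29, adjusted p = 0.0469) lay close to the threshold. The call of DCTPP1 was lost in 12 of 24 alternative settings and that of DCK in 8 of 24.

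Proliferation markers moved with the enzymes. The summed level of 10 such markers was 2416 to 2456 CPM in untreated and 869 to 1028 CPM in treated SDS22-degron cells, and 1919 to 2307 CPM and 1616 to 2218 CPM in the corresponding parental cells. All 10 were called lower with Dox/IAA in SDS22-degron cells (median log2 fold change -1.35) and 2 of 10 in parental cells (median -0.21). Of all tested genes, 25.5% were called lower in SDS22-degron and 15.7% in parental cells, and 2 of 10 is near the latter share. The MCM2-7 helicase subunits, which are made for replication as well, were called lower in 6 of 6 cases in SDS22-degron cells (median -1.19) and in 4 of 6 in parental cells (median -0.31). The part of cell cycle distribution in the enzyme values was not tested.

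Single libraries also varied in this manner. Replicate 2 of treated parental cells had the highest level of its group for 9 of 9 enzymes and 10 of 10 proliferation markers, and replicate 2 of untreated parental cells for 8 of 9 enzymes and 10 of 10 markers. Without both of these libraries, the numbers of enzymes called lower were 9 between the treated lines, 2 between the untreated lines, 9 in SDS22-degron cells, 5 in parental cells and 8 in the interaction. The enzyme not called in that interaction was DCTPP1. Of 16886 genes tested in that fit, 3431, 2530, 4280, 2282 and 1332 were called lower, in the same order. Among treated SDS22-degron cells, replicate 1 was highest for 7 of 9 enzymes and 9 of 10 markers. Leaving out treated parental replicate 2 alone raised the count of lower enzymes in parental cells from 5 to 8, and leaving out treated parental replicate 1 or replicate 3 reduced it to 3. All genes called lower in parental cells were 2557 of 16937 tested without treated parental replicate 2. They were 2186 of 16936 without replicate 1 and 1962 of 16932 without replicate 3.

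The DNA in front of the genes was inspected because the 9 enzymes fell together. RefSeq start sites gave 15 promoter windows for the 9 genes on GRCh38.p14, each from 250 bases before to 50 bases after the start, and 35116 windows for all genes. They were searched on both strands for 5 short motifs. CCAAT, the NF-Y box, was in 5 of the 15 windows and in 34.6% of all windows, and at least 2 copies were in 3 of the 15 (RRM2, TK1 and DTYMK) and in 10.8% of all. The E2F-type motif TTTGGCGC was in 2 of the 15 (DUT and DCK) and in 0.652% of all, and TTTCGCGC was in 0 of the 15 and in 0.515% of all. TTTGAA, the core of the CHR element, was in 2 windows (15.2% of all), and GGGCGG, an Sp1 box, in 11 (45% of all). No motif overlaps another in the stretches shown, and the count of CCAAT copies was taken after the matches were seen.

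The 3 promoters with repeated CCAAT boxes are shown from base -140 to base -1 before the start site, with the boxes in capitals (ATTGG is the box on the opposite strand). The stretch of RRM2 is chr2:10122599-10122738 on the plus strand, that of TK1 chr17:78187053-78187192 on the minus strand and that of DTYMK chr2:241686816-241686955 on the minus strand.
RRM2: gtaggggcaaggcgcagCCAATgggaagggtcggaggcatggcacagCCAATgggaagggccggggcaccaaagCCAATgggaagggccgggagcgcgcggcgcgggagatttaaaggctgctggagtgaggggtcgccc
TK1: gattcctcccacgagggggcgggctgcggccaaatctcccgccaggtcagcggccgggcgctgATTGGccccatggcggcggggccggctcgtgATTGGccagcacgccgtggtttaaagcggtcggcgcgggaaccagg
DTYMK: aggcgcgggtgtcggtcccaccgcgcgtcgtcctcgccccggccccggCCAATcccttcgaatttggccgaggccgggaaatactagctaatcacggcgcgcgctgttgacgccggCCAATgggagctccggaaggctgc

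In RRM2 the boxes began at -123, -93 and -66, in TK1 at -77 and -46, and in DTYMK at -92 and -24. The windows with a TTTGGCGC match are shown for DUT, from base -140 to -1 (chr15:48332057-48332196, plus strand), and for DCK, from base 11 to base 40 after the start (chr4:70993659-70993688, plus strand). Capitals mark TTTGGCGC, which is on the opposite strand in DCK, and in DUT also TTTGAA on the opposite strand.
DUT: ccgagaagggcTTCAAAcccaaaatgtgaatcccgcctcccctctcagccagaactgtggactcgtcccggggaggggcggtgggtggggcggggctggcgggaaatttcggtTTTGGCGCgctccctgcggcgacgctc
DCK: gctgcctccgcGCGCCAAAgtcaaaccccg

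RRM2 and TK1, with repeated CCAAT boxes, had the largest interaction values of the 9, and DTYMK, which also holds them, had the sixth. DUT and DCK, which share TTTGGCGC, had log2 fold changes of -1.05 and -0.40 in SDS22-degron cells. A match to these letters is a description of the sequence only, and a link between the boxes and the size of the response was not tested.

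Per kilobase of the gene length given with the counts, TK1 had the highest level of the 9 enzymes in every group and TYMS the next. The order rests on that length. In CPM alone, RRM2 was the highest in untreated SDS22-degron cells, at 421 against 304 for TYMS and 299 for TK1. In untreated SDS22-degron cells, TK1 was at 160.4 ± 3.55 CPM per kb (SD, n = 3), TYMS at 123 ± 1.98, RRM2 at 85.1 ± 4.01, DCTPP1 at 49.2 ± 0.260, RRM1 at 41.4 ± 1.07, DTYMK at 27.9 ± 1.19, CTPS1 at 16.1 ± 1.10, DUT at 12.7 ± 0.901 and DCK at 9.78 ± 1.79 CPM per kb. Each neighbour in this order was separated from the next by its library range. After Dox/IAA, the order was the same except that DCK (7.39 ± 1.05 CPM per kb) came before DUT (6.10 ± 0.926 CPM per kb). The ranges of these 2 overlapped, and so did those of TK1 (66.6 ± 9.06 CPM per kb) and TYMS (54.03 ± 5.625 CPM per kb).

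Some of the enzymes have an isozyme, and some of these isozymes serve resting cells or mitochondria. None of 4 isozyme genes was called lower with Dox/IAA in either line, beside 25.5% of tested genes in SDS22-degron and 15.7% in parental cells. RRM2B, the alternative small subunit of the reductase, rose in SDS22-degron cells from 95.3 ± 4.59 to 164 ± 9.45 CPM (SD, n = 3) with Dox/IAA (log2 fold change 0.78, adjusted p = 4.42e-08). It rose in parental cells as well, from 92.6 ± 5.86 to 111 ± 4.30 CPM (log2 fold change 0.26, adjusted p = 0.00856), and the interaction was 0.52 (adjusted p = 0.00141). TK2, the mitochondrial thymidine kinase, rose from 18.9 ± 1.56 to 31.8 ± 2.98 CPM in SDS22-degron cells (log2 fold change 0.75, adjusted p = 5.97e-06, interaction 0.53, adjusted p = 0.0158). Its untreated level was lower in that line than in parental cells (log2 fold change -0.68). DGUOK, the mitochondrial deoxyguanosine kinase (-0.13, adjusted p = 0.0992), and CTPS2, the other CTP synthase (0.00, adjusted p = 0.969), were not called.

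The ratio of RRM2 to RRM2B was therefore low in treated SDS22-degron cells. Per kilobase, RRM2 was at 4.84, 4.99 and 5.02 times RRM2B in the untreated SDS22-degron libraries and at 1.32, 0.937 and 1.09 times after Dox/IAA. The transcripts of the 2 small subunits were thus about level, with 32.8 ± 4.95 CPM per kb for RRM2 and 29.5 CPM per kb for RRM2B. In parental cells the ratio was 4.98, 5.29 and 4.36 without and 3.22, 4.41 and 3.15 with the agents, and these overlapped. The ratio of TK1 to TK2 was 62.8, 56.02 and 64.4 in untreated and 17.9, 14.4 and 12.96 in treated SDS22-degron cells. In parental cells it was 35.5, 43.3 and 34.3 without and 28.0, 33.9 and 24.8 with the agents, which did not overlap either. Before treatment it was thus higher in the SDS22-degron line than in the parental line.

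RRM2 relative to RRM1 had a mean log2 ratio of 1.04 ± 0.105 (SD, n = 3) in untreated SDS22-degron cells, above the 0.61 ± 0.103 of untreated parental cells. With Dox/IAA it was 0.62 ± 0.157 and 0.63 ± 0.0740. The ratio of CTPS1 to CTPS2 was 3.63, 3.94 and 4.16 in untreated and 2.13, 2.27 and 2.27 in treated SDS22-degron cells, without overlap. In parental cells it was 3.32, 3.62 and 3.49 without and 3.18, 3.24 and 3.06 with the agents, also without overlap. The mean log2 ratio of DCK to DGUOK was -2.27 ± 0.325 in untreated and -2.53 ± 0.136 in treated SDS22-degron cells, with overlap. Each of the 20 ratio comparisons was tested by a two-sided exact permutation test of 3 against 3 libraries, which cannot go below 0.1, and the lowest p adjusted over the 20 was 0.154.

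**Figure D3:**
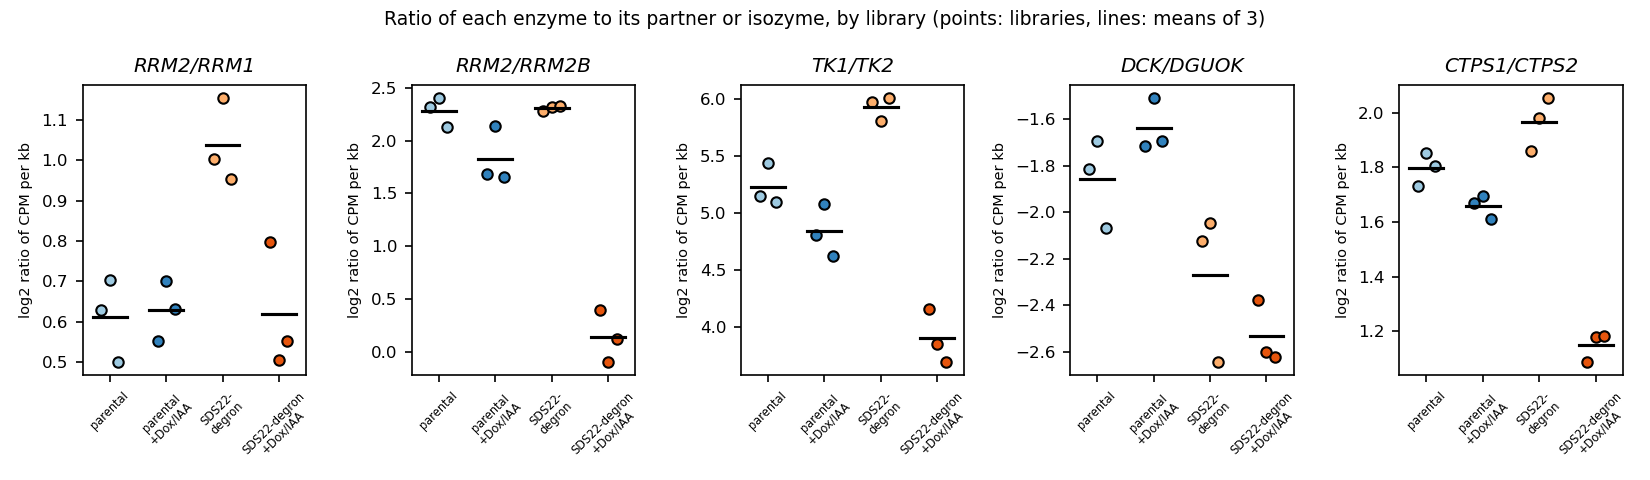
The log2 ratio of CPM per kb (vertical axes, each on its own scale) of 5 pairs of genes in the 4 groups; points are libraries and lines the mean of 3. RRM2/RRM2B, TK1/TK2 and CTPS1/CTPS2 are lowest in treated SDS22-degron cells without overlap, while RRM2/RRM1 is highest in untreated SDS22-degron cells.

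Other genes of nucleotide metabolism were counted in lists. These counts stand beside 25.5% of all tested genes called lower and 26% higher with Dox/IAA in SDS22-degron cells. In parental cells the shares were 15.7% and 15.9%. Of 9 genes that serve the folate cycle of TYMS, 8 were called lower and 1 higher with Dox/IAA in SDS22-degron cells (median log2 fold change -0.68), and 5 lower and 1 higher in parental cells (median -0.28). SLC19A1, the carrier of reduced folate, fell in both lines, by 1.13 in SDS22-degron and by 0.43 in parental cells on the log2 scale. MTHFD1, which interconverts folate cofactors, fell by 0.81 and by 0.41 on the same scale.

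Of 15 genes of de novo purine and pyrimidine synthesis, 14 were called lower and none higher in SDS22-degron cells (median log2 fold change -0.70), and 11 lower and none higher in parental cells (median -0.41). The largest changes named were those of PFAS (log2 fold change -1.58 in SDS22-degron and -0.65 in parental cells) and PAICS (-1.15 and -0.53), both of purine synthesis. In the interaction, 5 of the 15 were called lower, beside 8.35% of tested genes. The nucleotide kinases and reductase electron donors were mixed, with 6 of 13 lower and 3 higher in SDS22-degron cells, and 5 lower and 1 higher in parental cells. The 3 of 13 higher was near the share of all tested genes (26%). GSR, the glutathione reductase, was not called in either (log2 fold changes -0.10 and 0.01) and was lower in the SDS22-degron line both untreated (-0.29) and treated (-0.40).

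Genes of dNTP breakdown and pool control went in both directions, with 7 of 13 lower and 3 higher in SDS22-degron cells and 5 lower and 2 higher in parental cells. The counts of higher genes were near the shares of all tested genes (26% and 15.9%). NUDT1, which hydrolyses oxidized purine nucleotides, fell from 19.8 ± 1.49 to 6.76 ± 0.522 CPM (SD, n = 3) in SDS22-degron cells (log2 fold change -1.55, adjusted p = 9.67e-08). Its interaction was -1.19 (adjusted p = 0.000603). SAMHD1, which hydrolyses dNTPs, was higher in the SDS22-degron line at both conditions (log2 fold change 0.62 untreated and 0.59 treated) and rose with Dox/IAA in both lines by similar estimates (0.34 and 0.37, interaction -0.03, 95% confidence interval -0.30 to 0.24). Of 4 nucleoside transporters, 3 were called lower and 1 higher in SDS22-degron cells, and 1 lower and 1 higher in parental cells. SLC29A1, the equilibrative transporter that also brings thymidine into cells, had log2 fold changes of -1.10 and -0.44, and SLC29A2 had -0.60 and -0.22, the latter not called.

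**Figure D4:**
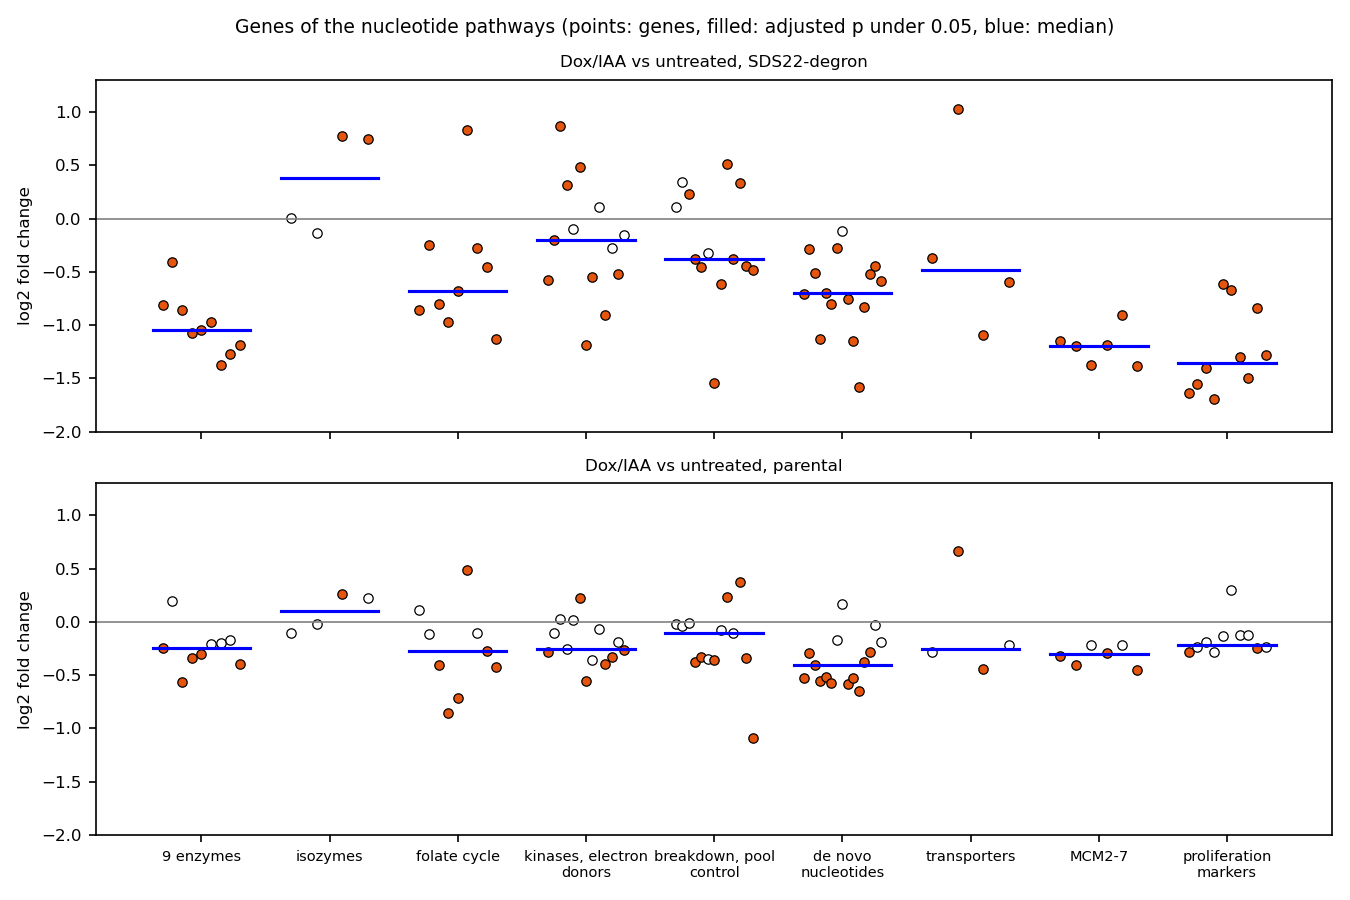
The log2 fold change with Dox/IAA (vertical axes) of every gene on 9 lists in SDS22-degron cells (upper panel) and parental cells (lower panel); filled points have an adjusted p below 0.05 and blue lines are medians. The 9 enzymes, the de novo nucleotide genes, MCM2-7 and the proliferation markers are all below 0 in SDS22-degron cells. Of 4 isozymes, 2 are called above 0 there, beside 26% of tested genes.

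The genes closest to the mean profile of the 9 enzymes over the 12 libraries included SSRP1, WDHD1, POLE and POLE3. Likeness was the root mean square distance between centred log2 CPM, which was 0.0700 for SSRP1, 0.0752 for WDHD1, 0.0792 for POLE and 0.0795 for POLE3, against a median of 0.511 over tested genes. Among the enzymes themselves, DUT was closest to the mean (0.0754) and DCK farthest (0.295).

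Processed pseudogenes of RRM2, DUT and TYMS are in the table, and those of TYMS held at most 85 counts over the 12 libraries (0.225% of those of TYMS). RRM2P3 held 8241 counts over the 12 libraries, 15.8% of those of RRM2, and DUTP5 held 1011, 15.8% of those of DUT. Both were lower with Dox/IAA in SDS22-degron cells, RRM2P3 by a log2 fold change of -1.46 and DUTP5 by -1.50. Reads cannot be reassigned in a count table. With the pseudogene counts added to those of the gene, the log2 fold change in SDS22-degron cells was -1.39 for RRM2 and -1.10 for DUT.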

How the data were processed

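Groups were taken from the labels. The file deposited by the authors holds unnormalized read counts for each gene and library, and also gene position, gene length and, as a percent, GC content. The submitters' processing notes list cutadapt 1.15, Bowtie2 2.3.3.1, STAR 2.5.2b, SAMtools 1.5, featureCounts 1.5.3 and GRCh38, without roles. Libraries were TruSeq stranded mRNA and single reads. Whether counting used the strand was not given in the sources used here, and opposite-strand overlaps are stated for that reason.

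In edgeR 4.0.16 (R 4.3.3), genes passed filterByExpr (minimum count 10), TMM scaling was applied, and 1 model with 4 group means was fitted to all 12 libraries. TMM factors were 0.971 to 1.03 and the common biological coefficient of variation was 7.48%. Deviations from the group mean correlated above 0.1 in 7 of 18 pairs of libraries with the same replicate number and in 0 of 36 pairs with different numbers (at most 0.0845), and 12 of 12 libraries correlated best with their own number. All 3 pairs were above 0.1 for untreated against treated parental cells (0.124, 0.246 and 0.131). The same held for the treated lines (0.101, 0.133 and 0.138). These comparisons were taken as paired by number, and the others were not. Between the untreated lines, pairs with the same number were at 0.0584, 0.0983 and 0.118. Pairs with different numbers were lower there, at -0.0795 to -0.0111. Pairing at a cut other than 0.1 was not tested. Main values are from the fit without the block, which leaves pairing by number out. The block is given where it changed a call. Between the treated lines it changed no call of the enzymes. The DCK call with the block is between the untreated lines, which were not taken as paired at the cut of 0.1. P-values rest on the spread between the 3 libraries within each group, pooled over the 4 groups and with information shared across genes. They do not measure variation between cell lines or clones. The procedure was also run on simulated data with independent libraries, which cannot show how it acts where libraries correlate by replicate number. The cut-off of the study requires an unadjusted p under 0.05 together with a change of more than 1 on the log2 scale.

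The 25 alternatives included the likelihood ratio test, DESeq2 1.42.0, other normalizations and filters, a replicate block, a GC correction, glmTreat (log2 fold change 0.5) and leaving out each library. The fit without both parental libraries numbered 2 and the fit with pseudogene counts added were chosen after seeing the data.

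The enzymes and the 10 other lists were chosen with earlier results of these data known. Named genes were the enzymes, their isozymes, SAMHD1 and, for each of 5 pathway lists, the top 2 by p in the comparison of treated lines. Some genes that met these rules are not reported here. Promoters were from RefSeq. Columns not mapped to a sample numbered 0.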

Additional observations from a re-analysis of the deposited data

Results flagged for a closer look

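The response to Dox/IAA differed between the SDS22-degron and the parental line, by the interaction term of edgeR's quasi-likelihood test, for all 9 enzymes and for 8 other named genes. On the log2 scale, the difference was -0.79 for TYMS, -0.76 for RRM1, -1.18 for RRM2, -1.10 for TK1, -0.75 for DUT, -0.29 for DCTPP1, -0.57 for CTPS1, -0.60 for DCK and -0.73 for DTYMK. Of all tested genes, 8.35% were called lower and 6.03% higher in the interaction. It was also negative for MTHFD1 (-0.40), SLC19A1 (-0.70), NUDT1 (-1.19), PFAS (-0.92), PAICS (-0.62) and SLC29A1 (-0.66). These genes were named for a small p between the treated lines, a comparison that contains the interaction. Their values are thus no separate evidence and do not stand for their lists. The isozymes RRM2B (0.52) and TK2 (0.53) had positive differences.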

How the results depend on the processing

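No value of the 9 enzymes changed its called direction under any of the alternatives. With each library left out in turn, 9 to 9 enzymes were called lower between the treated lines, 2 to 3 between the untreated lines, 8 to 9 with Dox/IAA in SDS22-degron cells, 3 to 8 in parental cells and 7 to 9 in the interaction. In the main fit, 23.1%, 15%, 25.5%, 15.7% and 8.35% of all tested genes were called lower, in the same order. With glmTreat, which tests against a log2 fold change of 0.5, 0 were called lower between the untreated lines, 0 in parental cells (0 in both also at an unadjusted p under 0.05) and 2 in the interaction (6 unadjusted). Of 16657 tested genes, glmTreat called 236, 87 and 209 lower, in the same order. Normalization by library size only left 3 in parental cells, beside 1958 of 16657 tested genes. Between the treated lines, only CTPS1 lost its call in 1 setting, glmTreat (adjusted p = 0.173). With Dox/IAA in SDS22-degron cells, only DCK lost its call, in 5 of 25 settings. The cause of these changes was not tested.

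Replicate numbers recur in all groups. With the replicate number as a block, DCK was called lower between the untreated lines (log2 fold change -0.26, adjusted p = 0.0473) and RRM1 in parental cells (-0.21, adjusted p = 0.0337), and no other call of the enzymes changed. Of these comparisons, only that in parental cells had all same-number pairs above 0.1 and was taken as paired. The fit with only the groups compared gives no interaction. With 3 libraries per group, small differences, such as that of DCK, lie near the limit of the test.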
